A study of Mus musculus with 68 samples.

Results

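The splicing factor and hnRNP genes are 64 of the 24941 gene names in 8 tables of mouse oocytes and early embryos. They were taken by name: every gene whose symbol begins with Sf3a or Sf3b and a digit, Snrp, Srsf and a digit, Hnrnp, or Prpf and a digit, without the imprinted gene Snrpn. The groups are 9 SF3 subunits, 11 snRNP proteins, 11 SR proteins, 20 hnRNP proteins and 13 PRP proteins. In all, 60 of them were listed in every table, 63 reached 1 FPKM in at least 2 libraries of 1 table or more, and 57 did so in all 8 tables. Srsf12, an SR protein gene, reached that level in no table. Hnrnpul1 did not in oocytes and 1-cell embryos, Prpf19 did not in oocytes, and Prpf40b did not in oocytes and was not listed for the 1-cell, late 2-cell and 8-cell embryos. Hnrnpdl, Hnrnpll and Sf3b6 were listed under these names in 3 tables alone, those of the oocytes, the late 2-cell embryos and the second E3.5 set. Gene symbols differ between tables, so the others may list these genes under other names.

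Splicing removes introns in a large RNA-protein machine, the spliceosome, built from small nuclear ribonucleoprotein particles (snRNPs). Sm proteins, encoded by Snrpb, Snrpd1, Snrpd2, Snrpd3, Snrpe, Snrpf and Snrpg, form a ring around the small nuclear RNAs, and Snrpa, Snrpc, Snrpa1 and Snrpb2 encode proteins particular to U1 or U2. The SF3a and SF3b complexes belong to the U2 snRNP and hold it at the branch point, PRP proteins take part in the tri-snRNP and in the remodelling of the catalytic centre, SR proteins mostly favour exon inclusion through exonic enhancers, and hnRNP proteins coat nascent transcripts and often act against it. An oocyte stops transcription when fully grown and in the mouse embryo a minor wave of transcription in the 1-cell embryo precedes the major wave in the 2-cell embryo, so stores of these messages and their first embryonic transcripts can both be present in early embryos.

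The libraries were made by Smart-seq2, a method for polyadenylated RNA from small samples, in a study of the deletion of Ezhip, an X-linked gene whose product inhibits the histone methyltransferase PRC2. Oocytes labelled FGO came as 3 Ezhip KO, 2 Het and 2 WT libraries. The 1-cell (PN5), late 2-cell, first E3.5, E6.5 epiblast and E6.5 extraembryonic ectoderm (ExE) sets each had 2 libraries labelled mKO, 2 labelled mHet and 2 WT. The 8-cell set had 3 mKO, 1 mHet and 2 WT libraries, the second E3.5 set 5 of each genotype, and E4.25 had 4 mKO, 1 mHet and 4 WT libraries after identical mHet libraries were counted as 1 sample. The labels state neither strain, maternal age nor the way the allele was deleted. The names mHet and mKO are used here as labels, and the embryos' own Ezhip alleles are not inferred from them. They do not say whether libraries came from separate animals or cultures, so a p-value here reflects library-to-library spread that may be technical. Whether the ExE and epiblast libraries shared embryos is not said either. A treatment note common to all labels describes culture in the EZH2 inhibitor GSK343 or in DMSO up to the 8-cell stage, but no library's own label names either agent.

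Values are FPKM, read counts scaled by gene length and library total, so a level is a share of the polyadenylated RNA that was read. In bulk libraries, fewer cells of a type and less RNA per cell cannot be told apart. Read depth is unknown, and 4940 to 9804 genes reached 1 FPKM in a library. Rn45s, the ribosomal RNA precursor, took 0.209 to 21.0% of the summed FPKM in oocytes, 1-cell, late 2-cell, 8-cell, first E3.5 and E6.5 libraries, but 9.19 to 69.5% in the second E3.5 set and 11.7 to 68.6% at E4.25, and a high share lowers the FPKM of every other gene by construction. Ezhip, listed as AU022751, was at 0 to 0.175 FPKM in KO oocytes against 297 to 546 in WT oocytes, and at 0.124 to 0.933 in mKO 1-cell embryos against 251 to 368 in WT. At the 8-cell stage and later it was at 1.503 FPKM or less in every library, so it cannot check the labels there. Oocyte markers were all at 1 FPKM or more in FGO libraries (7 of 7). They summed to 12890 to 14150 FPKM in WT, Het and KO replicate 1 and KO replicate 2. In WT and Het replicate 2 and KO replicate 3 they summed to 6300 to 7109 FPKM. The 2 WT oocyte libraries, and every SD given for them, span this split. In the E6.5 sets the ExE libraries had Elf5 at 74.0 to 144 FPKM, against 0 to 18.4 in epiblast libraries. Fgf5, an epiblast gene, was at 0 to 5.65 FPKM in ExE libraries and at 26.4 to 77.8 in epiblast libraries. The highest Fgf5 among ExE libraries was in WT replicate 1, which also held Pou5f1 at 18.3 FPKM, and the highest Elf5 among epiblast libraries was in an mKO library. As a list, the 8 epiblast markers summed to 185 to 318 FPKM in ExE libraries and 863 to 1205 in epiblast libraries. In ExE libraries 6 to 8 of them reached 1 FPKM in WT, 3 to 6 in mHet and 3 in mKO. The 8 ExE markers summed to 257.5 to 373 FPKM in ExE libraries and 8.67 to 57.9 in epiblast libraries. In epiblast libraries 1 to 3 of these reached 1 FPKM in WT, 1 to 5 in mHet and 3 to 6 in mKO. Tissue carry-over was not tested.

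Taken as a whole, the splicing genes made up a small share of the oocyte's message and a larger one of the embryo's. In WT libraries their summed FPKM was 0.672 ± 0.052% of a library in oocytes and 0.960 ± 0.025% in 1-cell embryos (SD, n = 2 each). It was 1.71 ± 0.14% in late 2-cell embryos and 1.80 ± 0.12% in 8-cell embryos (SD, n = 2 each). The share was 1.24 ± 0.15% in the first E3.5 set (SD, n = 2), 1.31 ± 0.31% in the second (SD, n = 5) and 0.818 ± 0.561% at E4.25 (SD, n = 4). At E6.5 it was 2.09 ± 0.16% in ExE and 2.55 ± 0.11% in epiblast (SD, n = 2 each). With Rn45s left out of the total the shares of the second E3.5 set and of E4.25 were 1.82 ± 0.13% and 1.40 ± 0.50%, and the order of oocyte, 1-cell, 2-cell and E6.5 libraries stayed as above. The tables were normalized separately and list different numbers of genes and of members, so levels across stages are described here without a test.

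**Figure D1:**
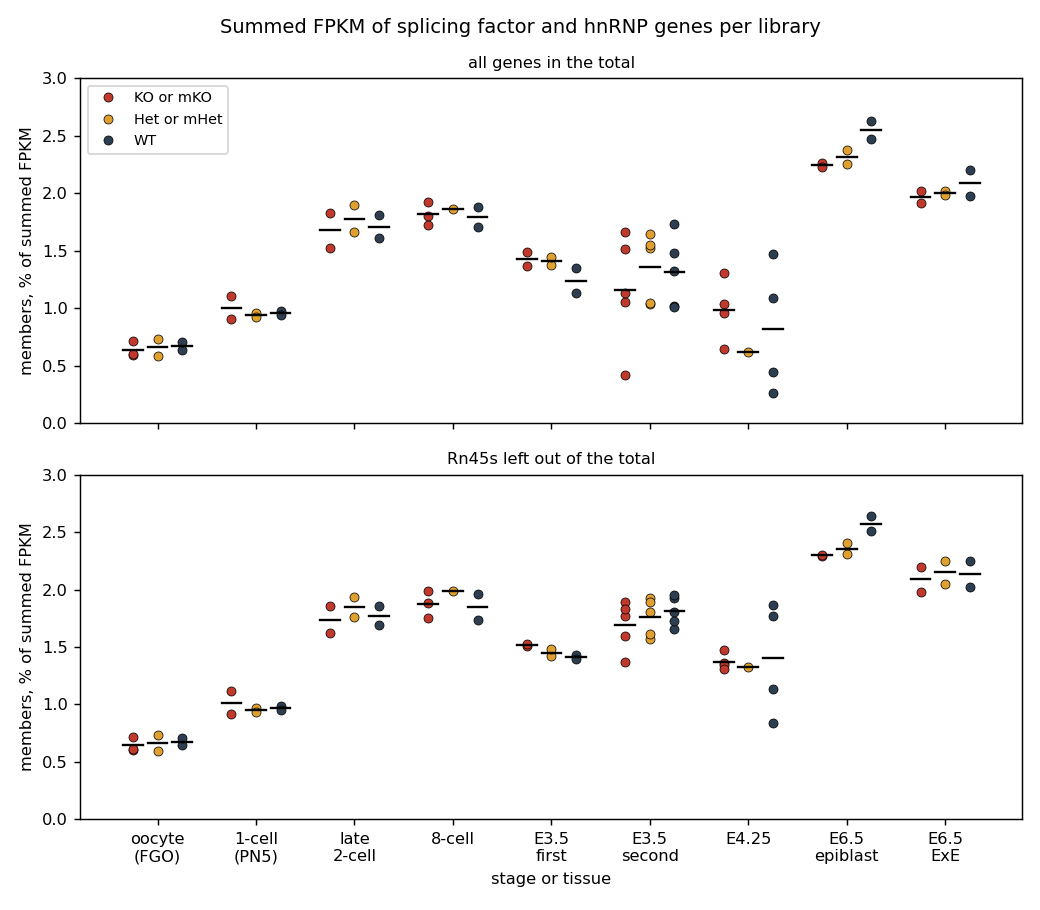
Summed FPKM of the splicing factor and hnRNP genes as a percent of each library (y axis) by stage or tissue (x axis); points are libraries, KO or mKO left, Het or mHet middle, WT right, and bars are group means. The upper panel takes all genes in the total and the lower leaves out Rn45s, where the WT mean at E4.25 is 1.40%, against 0.818% in the upper; epiblast WT libraries are the highest at 2.47 and 2.63%.

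The families differed in how far their shares changed. SR protein genes held 0.0377 ± 0.0109% of the summed FPKM in WT oocytes, 0.0709 ± 0.0038% in 1-cell embryos, 0.192 ± 0.000566% in late 2-cell embryos and 0.437 ± 0.009% in epiblast (SD, n = 2 each). The snRNP protein genes, which held the largest share of the families at each of these stages, had 0.395 ± 0.037%, 0.555 ± 0.024%, 0.895 ± 0.132% and 1.13 ± 0.17% over the same series (SD, n = 2 each). For hnRNP genes the shares were 0.121 ± 0.038%, 0.190 ± 0.002%, 0.391 ± 0.000495% and 0.790 ± 0.046% (SD, n = 2 each). The PRP genes held 0.0469 ± 0.0187% in oocytes and 0.0848 ± 0.0081% in epiblast, and the SF3 genes 0.0717 ± 0.0212% and 0.107 ± 0.013% (SD, n = 2 each). As a ratio of epiblast over oocyte shares the SR family (11.6) and the hnRNP family (6.53) lay above the snRNP (2.87), PRP (1.81) and SF3 (1.49) families. Each share sums the members listed at that stage. Sf3b6, Hnrnpdl and Hnrnpll thus count in oocytes and late 2-cell embryos but not in 1-cell embryos or epiblast. Over all genotypes Sf3b6 averaged 15.7 FPKM in oocytes and 143 in late 2-cell embryos, and Hnrnpdl 17.8 and 40.9. The SF3 and hnRNP series therefore compare unlike gene sets. In percentage points of the library the snRNP family differed most (0.738), followed by hnRNP (0.669) and SR genes (0.40).

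Of the 60 genes listed in every table, 38 had their highest WT median in the E6.5 epiblast and none in oocytes, while 28 had their lowest at E4.25, 13 in oocytes and 11 in 1-cell embryos. With Rn45s removed and the rest rescaled, 37 were highest in epiblast, and the lowest median fell in oocytes for 21, at E4.25 for 16 and in 1-cell embryos for 12. Their median FPKM was 11.5 in oocytes, 14.7 in 1-cell, 27.5 in late 2-cell and 38.9 in 8-cell embryos. It was 26.9 and 11.5 in the E3.5 sets, 8.82 at E4.25, 68.6 in ExE and 80.1 in epiblast. In each of the 67 libraries the median member lay between the 78.4th and the 96.0th percentile of all genes listed in its table. These genes were thus among the more abundant ones of each list, which also holds genes below 1 FPKM. The lists run from 14055 to 24056 genes, so percentiles cannot be compared between tables. The lowest were in the 1-cell table, which lists 14055.

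**Figure D2:**
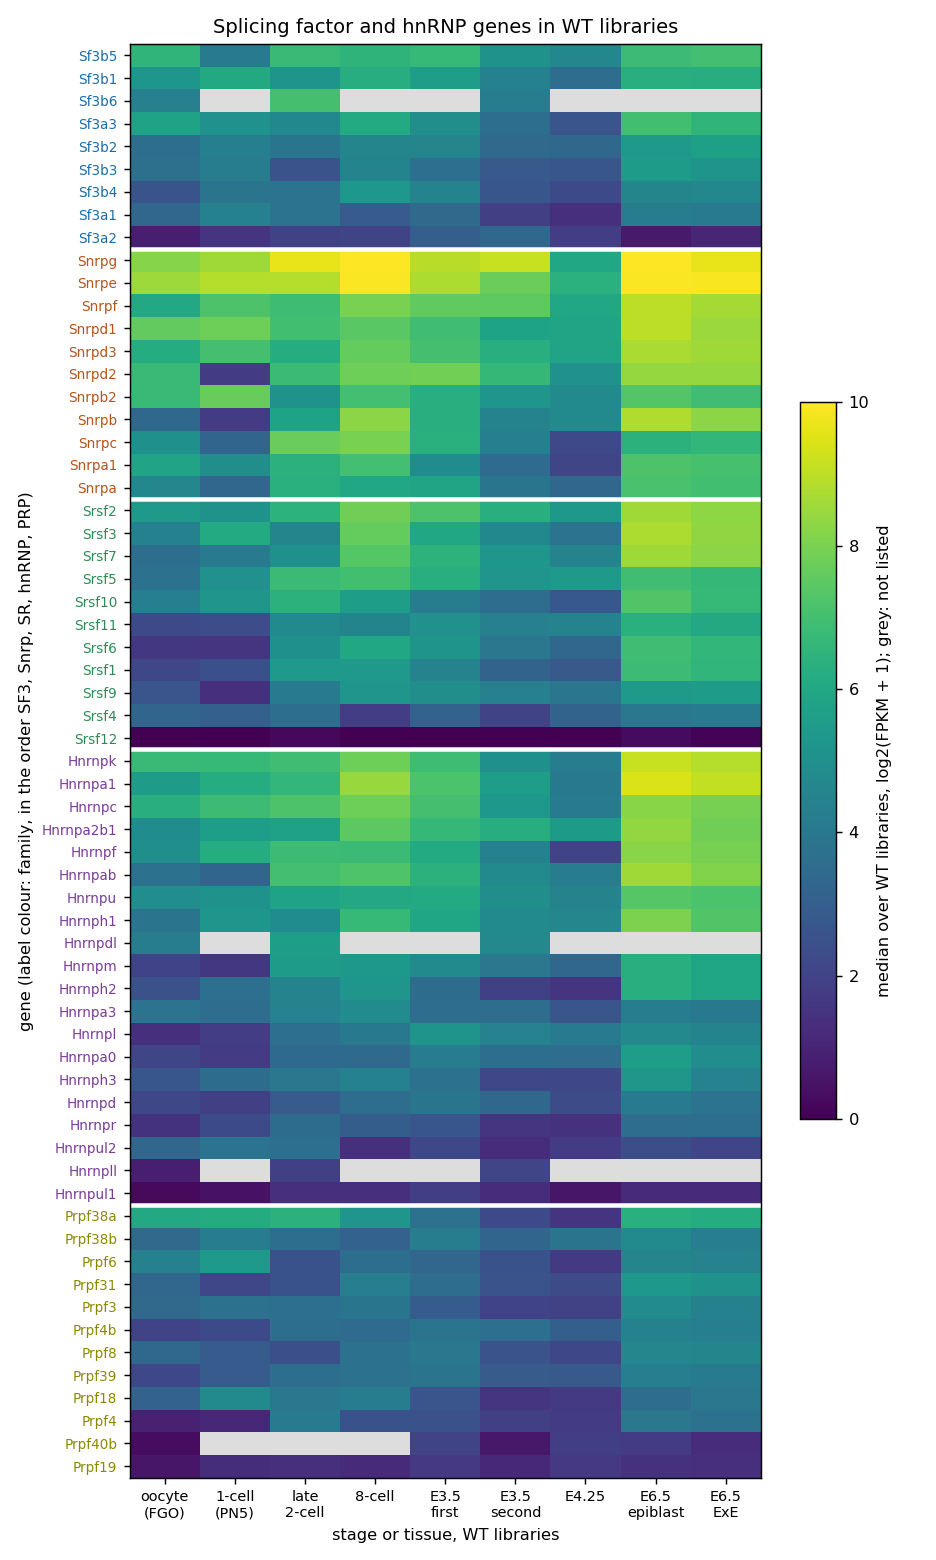
WT median of 63 members by stage or tissue (x axis) on a log2(FPKM + 1) colour scale from 0 to 10. Rows are genes ordered by family and level, and grey cells are genes that a table does not list under that name. The Sm genes Snrpg and Snrpe are the brightest rows, Srsf12 is dark throughout, and most rows are brightest in epiblast.

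Most members were higher in late 2-cell embryos than in oocytes. Of the 54 at 10 FPKM or more in the higher of both stages, 48 were higher in late 2-cell embryos and 6 lower. Of all 5204 genes at that level, 52.8% were higher. The median ratio was 2 for the members and 1.15 for all. Over 2-fold higher were 27 members (50%) and over 2-fold lower 4 (7.41%), beside 37.5% and 33% of all genes. Prpf4, a tri-snRNP protein, had 17.3 and 14.6 FPKM in WT late 2-cell embryos against 0.676 and 1.12 in WT oocytes, a ratio of medians of 17.8. Srsf6, an SR protein, had 34.2 and 28.5 FPKM against 1.45 and 2.72 in oocytes, a ratio of 15.0. Hnrnpm, which regulates alternative exons, and Srsf1, the founding SR protein, had ratios of 14.8 and 12.2. For all of these the libraries of the stages did not overlap in any genotype.

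A few other members were lower after that step. Prpf6, which bridges the tri-snRNP, had 5.08 and 4.26 FPKM in WT late 2-cell embryos against 14.0 and 25.9 in WT oocytes, so oocytes were 4.27 times as high. Snrpb2, the U2 B double prime protein, had 32.6 and 34.5 FPKM against 106 and 109, and oocytes were 3.21 times as high. The SF3 genes Sf3b3 and Sf3a3, a scaffold of SF3b and a subunit of SF3a, were 2.42 and 2.22 times as high in oocytes as in late 2-cell embryos. The SF3 family thus had members on the falling side, and it also had members that rose. Over the libraries of all genotypes Sf3b6 averaged 15.7 FPKM in oocytes and 143 in late 2-cell embryos, and Sf3b4 6.80 and 14.9. No SF3 gene was among the 4 largest rises.

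In between, the 1-cell embryo had its own levels. Snrpd2, an Sm protein gene, had 58.5 and 151 FPKM in WT oocytes, 2.06 and 2.88 in WT 1-cell embryos and 94.5 and 126 in WT late 2-cell embryos. The mKO 1-cell libraries gave 0.825 and 2.25 FPKM and the mHet libraries 0.958 and 2.32, so the low level was shared by all 6 libraries of that table. Snrpc, a U1 protein gene, had WT medians of 31.6, 8.62 and 210 FPKM over the same stages, Snrpa, also of U1, 23.9, 8.98 and 80.1, and Sf3b5, an SF3b subunit, 93.0, 15.9 and 108. Of the 30 members at 10 FPKM or more in both oocytes and late 2-cell embryos, these 4 (13.3%) were over 2-fold below both neighbours at the 1-cell stage, beside 16.1% of 2292 genes in all, a share near the background. The opposite course, over 2-fold above both neighbours, was taken by Prpf6 and Srsf3, 2 of 36 members (5.56%) beside 16.3% of 3707 genes. The genes of this paragraph were picked for these courses after their values were seen.

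Between the late 2-cell and 8-cell stages 20 of 55 members (36.4%) were over 2-fold higher and 5 (9.09%) over 2-fold lower, beside 30.9% and 28.2% of 4674 genes. Srsf3, an SR protein that also serves in mRNA export, had 159 and 241 FPKM in WT 8-cell embryos and 16.2 and 28.7 in WT late 2-cell embryos, a ratio of 8.89. Snrpb, which encodes the Sm protein B, followed with 241 and 363 FPKM against 43.2 and 65.7, a ratio of 5.55. Srsf7 and Sf3b3 had ratios of 5.21 and 4.47. Going the other way, Hnrnpul2, an hnRNP U-like protein gene, had 1.17 and 1.99 FPKM in 8-cell embryos against 10.3 and 12.7 at the 2-cell stage, which was 7.27 times as high. Srsf4, Prpf4 and Prpf38a were 4.41, 3.40 and 2.38 times as high at the 2-cell stage. Prpf4 was therefore high at the late 2-cell stage relative to both of its neighbours.

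**Figure D3:**
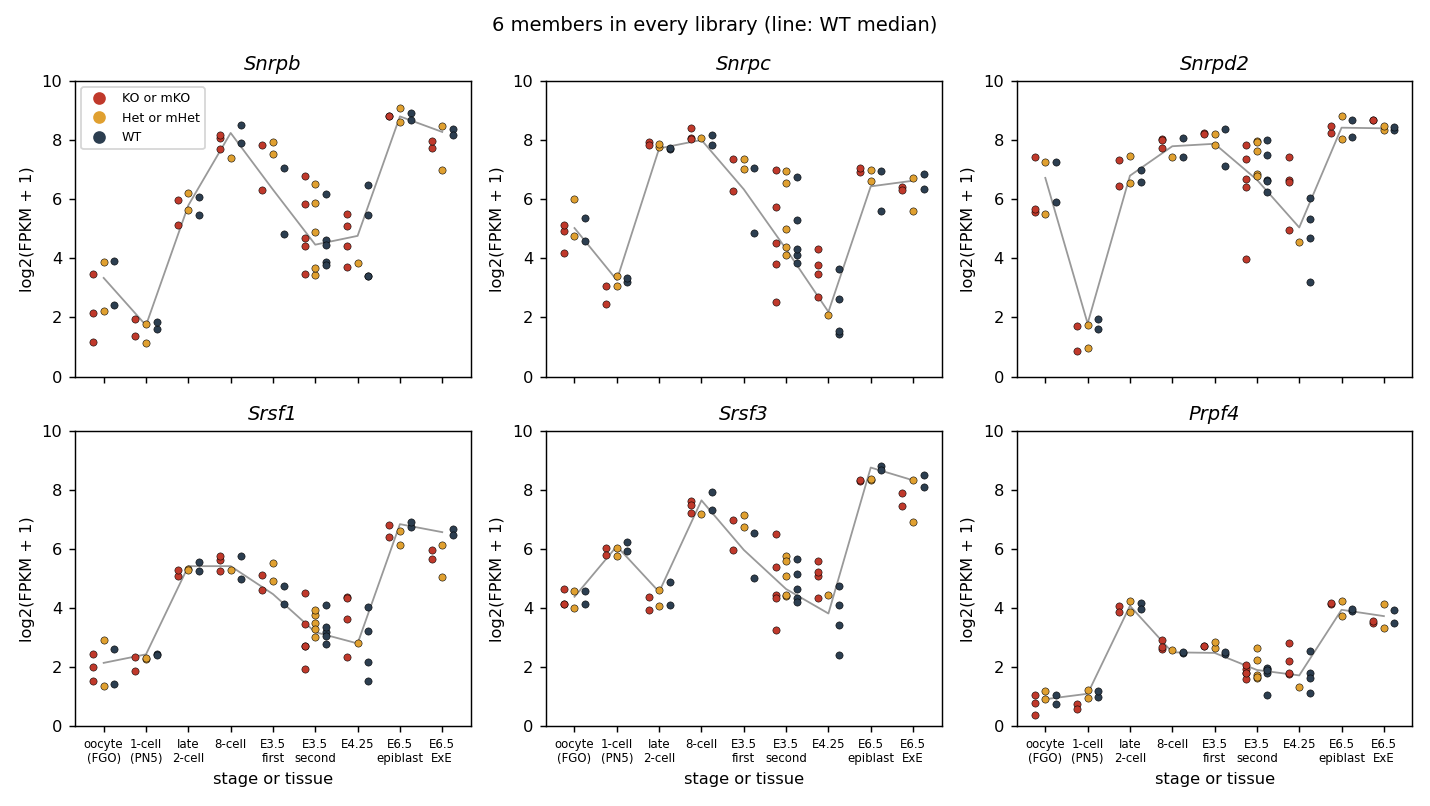
Levels of 6 members on a log2(FPKM + 1) scale (y axis) in every library by stage or tissue (x axis), with KO or mKO left, Het or mHet middle and WT right, and a grey line through the WT medians. Snrpd2 drops to 0.825 to 2.88 FPKM in all 6 1-cell libraries, Snrpb is higher at the 8-cell stage than at the 3 earlier stages, and Srsf1 and Prpf4 are low in oocytes and 1-cell embryos.

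From the blastocyst to the epiblast most genes were higher, and nearly all members were. Compared with the first E3.5 set, WT epiblast medians were higher for 54 of 55 members, beside 74.3% of 4844 genes, and over 2-fold higher for 38 (69.1%), beside 47.7%. The median ratio was 2.56 for the members and 1.93 for all. Srsf10, an SR-like protein that can repress splicing, had 157 and 153 FPKM in WT epiblast against 8.26 and 26.5 in the first WT E3.5 set, a ratio of 8.91. Hnrnph2, the X-linked member of the hnRNP H group, Srsf3 and Prpf38a had ratios of 7.27, 7.00 and 6.63. The exception was Hnrnpl, which binds CA-rich RNA, with 23.3 and 27.3 FPKM in epiblast against 40.5 and 30.4, or 1.40 times as high at E3.5. The WT libraries of the first E3.5 set differed from each other: Hnrnpa1 had 55.7 and 228 FPKM, Hnrnpk 34.9 and 200, and Snrpb 27.2 and 131.

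The levels also ranked the genes within families, since FPKM corrects for length. The averages that follow are means of the WT group means, with each E3.5 set a group of its own. Snrpg and Snrpe averaged highest of the snRNP genes (650 and 583 FPKM) and Snrpa lowest (58.5). Sf3b5 and Sf3b6 led the SF3 genes (82.0 and 60.6, Sf3b6 over 3 tables) and Sf3a2 was lowest (3.37). Srsf2 and Srsf3 led the SR genes (152 and 130) with Srsf4 lowest among those kept (9.16). Hnrnpa1 and Hnrnpk led the hnRNP genes (224 and 195) and Hnrnpul1 was lowest (1.25), and Prpf38a led the PRP genes (47.4) with Prpf19 lowest (1.54). Many of the abundant members, among them Hnrnpa1, Hnrnpk, Hnrnpa3, Srsf3 and the Sm genes, have processed copies in the genome, and the labels do not say how reads that fit several places were counted, so their levels are uncertain. Among the anchors of the core machinery, Sf3b1, the branch-point subunit that is mutated in blood cancers, had WT medians between 10.8 FPKM at E4.25 and 79.2 in epiblast. Prpf8, the protein at the heart of the catalytic centre, ran from 3.47 FPKM at E4.25 to 24.0 in epiblast.

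Promoter sequences were taken from RefSeq on GRCm38.p6, 250 bases before to 50 after the annotated start, and 56 of the 64 members matched an entry. They are shown because members that share families also shared short sequence matches that the choice by name did not use. The letters CCGGAAG, a core recognised by ETS family factors, were found on either strand in 19 of 56 member promoters (33.9%), beside 9.12% of all 27025 promoters. By family, 6 of 7 SF3, 4 of 9 snRNP, 4 of 11 SR, 3 of 11 PRP and 2 of 18 hnRNP promoters held it. CCAAT was in 27 of 56 (48.2%), among them 12 of 18 hnRNP promoters, beside 37.9% of all. TATAAA was in 6 (10.7%, beside 14.2%), a YY1 core in 1 (1.79%, beside 0.699%), and an NRF1 core in none, beside 0.977% of all. Both strands were searched for each. The median GC content was 60% in members and 52.7% over all promoters, with medians of 25 CG pairs in members and 7 over all. A match is a description of the letters alone, and any link of a match to a gene's course was not tested. Of the genes with a 1-cell dip, Snrpc held CCGGAAG, while Snrpa and Snrpd2 did not. Capitals mark CCGGAAG or its complement in the first 4 promoters and CCAAT or its complement in the last; Snrpb2 and Sf3a3 are shown as genes higher in oocytes than in late 2-cell embryos, Snrpc for its dip at the 1-cell stage, Snrpe as one of the most abundant Sm genes, and Hnrnpab as an hnRNP gene lower in ExE. They lie at chr1:133610231-133610530 on the minus strand, chr2:143062819-143063118 on the plus strand, chr17:27839837-27840136 on the plus strand, chr4:124714611-124714910 on the plus strand and chr11:51606832-51607131 on the minus strand.
Snrpe: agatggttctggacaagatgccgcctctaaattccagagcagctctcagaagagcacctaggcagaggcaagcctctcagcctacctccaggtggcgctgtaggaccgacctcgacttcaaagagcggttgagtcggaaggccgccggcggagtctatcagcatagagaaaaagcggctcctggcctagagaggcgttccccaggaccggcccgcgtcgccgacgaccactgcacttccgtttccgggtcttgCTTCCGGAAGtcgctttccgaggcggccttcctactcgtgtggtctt
Snrpb2: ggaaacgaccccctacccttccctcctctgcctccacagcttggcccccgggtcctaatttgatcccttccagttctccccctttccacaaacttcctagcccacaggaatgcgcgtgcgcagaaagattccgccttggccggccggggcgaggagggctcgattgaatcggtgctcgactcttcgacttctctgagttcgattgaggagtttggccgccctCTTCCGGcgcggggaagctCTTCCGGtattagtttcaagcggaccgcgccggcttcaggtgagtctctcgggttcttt
Snrpc: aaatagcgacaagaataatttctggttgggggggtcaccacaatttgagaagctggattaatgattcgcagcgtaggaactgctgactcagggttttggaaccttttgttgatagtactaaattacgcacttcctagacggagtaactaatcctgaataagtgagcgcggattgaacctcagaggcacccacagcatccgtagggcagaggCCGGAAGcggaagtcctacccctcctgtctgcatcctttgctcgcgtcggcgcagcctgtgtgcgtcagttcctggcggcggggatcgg
Sf3a3: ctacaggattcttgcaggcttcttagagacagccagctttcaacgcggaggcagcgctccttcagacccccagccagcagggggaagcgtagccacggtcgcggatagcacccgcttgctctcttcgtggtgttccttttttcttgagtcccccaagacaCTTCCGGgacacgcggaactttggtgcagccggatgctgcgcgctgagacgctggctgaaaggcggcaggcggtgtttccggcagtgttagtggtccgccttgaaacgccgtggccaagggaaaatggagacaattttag
Hnrnpab: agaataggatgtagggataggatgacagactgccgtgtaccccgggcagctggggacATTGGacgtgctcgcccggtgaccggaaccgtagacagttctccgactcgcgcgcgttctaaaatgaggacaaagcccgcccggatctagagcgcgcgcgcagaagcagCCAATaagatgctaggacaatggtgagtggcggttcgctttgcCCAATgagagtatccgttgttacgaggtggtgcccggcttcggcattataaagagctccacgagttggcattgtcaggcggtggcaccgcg

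In Snrpe both orientations of the core overlap within the letters that begin 4 bases after the annotated start. Snrpb2 holds the complement 28 and 9 bases before the start, Snrpc the core 39 bases before and Sf3a3 the complement 90 bases before. Hnrnpab has CCAAT 84 and 41 bases before the start and its complement 193 bases before.

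The splicing genes had no call in 8 of the 9 knockout comparisons, those of KO oocytes or mKO embryos against WT. No member passed an adjusted p of 0.05 (limma, Benjamini-Hochberg over all genes kept) in oocytes (0 of 60, background 0.0102%), 1-cell embryos (0 of 58, background 0.0116%), late 2-cell embryos (0 of 62, background 0.00969%) or 8-cell embryos (0 of 59, background 0.012%). The same held in the first E3.5 set (0 of 60, background 0.0407%), the second (0 of 63, background 0.0539%), epiblast (0 of 60, background 0.00907%) and ExE (0 of 60, background 0%). The background is the share of all genes tested that passed. At an unadjusted p under 0.05 the only members were 3 lower in late 2-cell embryos (background 4.36% lower) and 1 higher in epiblast (background 2.73% higher). Among oocytes only 0.112% of all genes had an unadjusted p under 0.05. The oocyte libraries split by marker sums within each genotype, and the model held no term for that split. With 2 to 5 libraries a group, the median standard error of a member's log2 change was 0.25 in 1-cell, 0.29 in late 2-cell and 0.33 in 8-cell embryos, 0.39 at E6.5, 0.41 in the second E3.5 set, 0.62 in the first E3.5 set and 0.67 in oocytes. Changes several times these errors could also go without a call. Hnrnpm in late 2-cell embryos, with a log2 change of -0.90 and an SE of 0.24, did not pass.

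**Figure D4:**
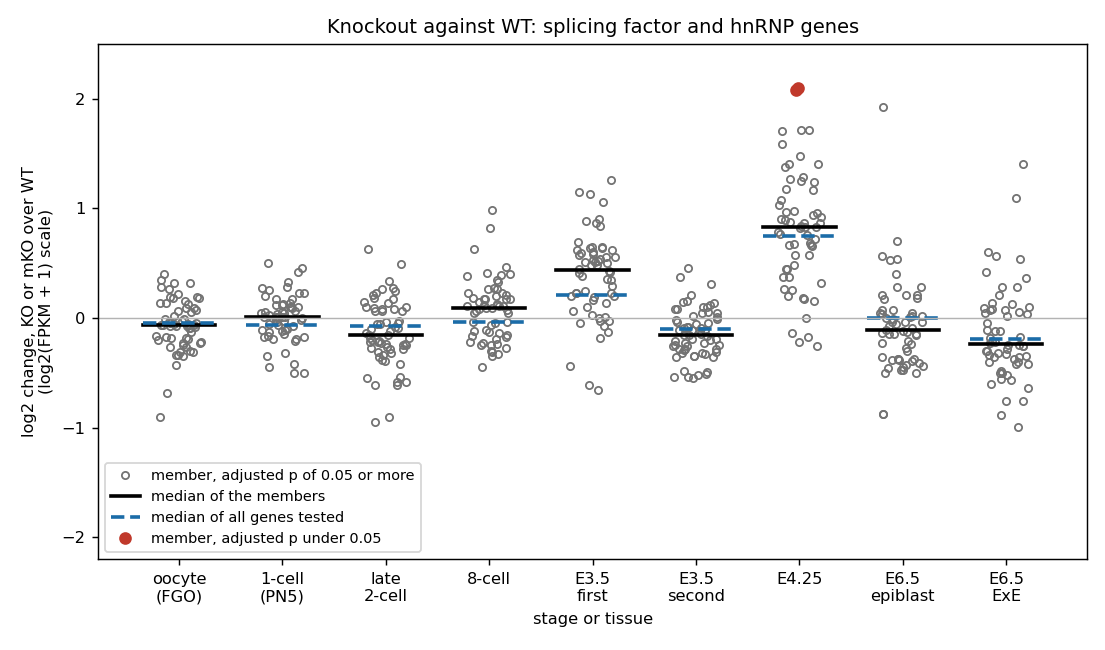
Log2 change of each member, KO or mKO over WT, on the log2(FPKM + 1) scale (y axis) in the 9 stages or tissues (x axis); open grey circles did not pass, red circles passed an adjusted p of 0.05, black lines are medians of the members and dashed blue lines medians of all genes tested. The 2 red circles are both at E4.25, where both medians are highest (0.83 and 0.74).

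Late 2-cell embryos and epiblast held the members with an unadjusted p under 0.05, and Srsf2 had the smallest p of the members higher in mKO late 2-cell embryos. Hnrnpm had 22.0 and 24.9 FPKM in mKO late 2-cell embryos against 44.7 and 44.4 in WT, with 41.7 and 54.0 in mHet (log2 change -0.90, SE 0.24, limma adjusted p = 0.387). The mKO libraries lay below all others, but 23.3% of genes separated downwards in that comparison. Srsf10 in the same embryos had 47.4 and 64.1 FPKM in mKO against 83.4 and 86.2 in WT (-0.61, SE 0.24, limma adjusted p = 0.605). Srsf6, also an SR protein, had 19.5 and 21.5 FPKM in mKO against 34.2 and 28.5 in WT (-0.58, SE 0.23, limma adjusted p = 0.605). Srsf2, a splicing enhancer-binding SR protein that did not reach that level, had 118 and 128 FPKM in mKO late 2-cell embryos against 85.8 and 88.7 in WT (0.49, SE 0.23, limma adjusted p = 0.684). In epiblast Sf3b4, a subunit of SF3b near the branch point, had 43.6 and 71.0 FPKM in mKO against 4.37 and 40.4 in WT (1.93, SE 0.86, limma adjusted p = 1), and the spread lay between the WT libraries.

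In epiblast 38 of 60 members had a negative change in mKO against WT and 22 a positive one, with a median log2 change of -0.11 beside 0.0048 over all genes, of which 49.3% were negative. Groups of libraries separated downwards for 21 of 60 members and upwards for 6 of 60, beside 21.1% down and 20.6% up among all genes. The summed FPKM of the members was 2.25 ± 0.02% of a library in mKO epiblast, 2.32 ± 0.09% in mHet and 2.55 ± 0.11% in WT (SD, n = 2 each). Each mKO library lay below each WT library in that sum, with p = 0.333 in a two-sided exact permutation test, the smallest that 2 libraries against 2 allow. In ExE 28 of 60 members separated downwards in mKO and 11 of 60 upwards, beside 37.4% and 14% of all genes. The summed share was 1.97 ± 0.07% in mKO and 2.09 ± 0.16% in WT (SD, n = 2 each). Visceral endoderm markers summed to 29.7 FPKM (6 of 9 at 1 FPKM or more) in ExE mKO replicate 2 and 1.82 in replicate 1, against 1.56 and 2.16 in ExE WT. Among them Apoa1 had 9.94 FPKM and Ttr 6.34 FPKM in mKO replicate 2, and Afp was at 0. Their part in the ExE values was not tested, and in mKO against WT no member was called with or without that library. The difference of the mKO effect between ExE and epiblast passed for none of the 60 members (background 0%, smallest adjusted p = 0.972 by limma), and none had an unadjusted p under 0.05 (background 3.41%).

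At E4.25 the comparison of mKO with WT had calls, and here the libraries themselves differed in composition. Of 60 members 2 were higher in mKO and none lower (3.33%, background 14.6%), and 10 were higher at an unadjusted p under 0.05 (background 34%). Hnrnpf, which binds G-rich RNA, had 38.5, 8.38, 13.7 and 28.2 FPKM in mKO and 9.43, 3.62, 2.74 and 1.79 in WT, and the mHet library had 3.62. The lowest mKO library fell below the highest WT library, and the log2 change was 2.08 (SE 0.60, limma adjusted p = 0.0327). Snrpa1, the U2 A prime protein gene, had 10.2, 30.1, 9.65 and 15.6 FPKM in mKO and 3.27, 9.07, 0 and 3.32 in WT, so the groups did not overlap, as for 6 members in all (background 21.6%). Its log2 change was 2.10 with an SE of 0.65 (limma adjusted p = 0.0418).

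At this stage 56 of 60 members had a positive change, as did 86.2% of all genes, and the median log2 change was 0.83 for the members beside 0.74 for all genes. Rn45s took 11.7 to 52.4% of the summed FPKM in mKO libraries and 21.0 to 68.6% in WT libraries. WT replicates 3 and 4, at 68.6% and 60.5%, were the ones with the lowest summed share of the members, 0.263% and 0.448%. Epiblast markers summed to 51.4 to 127 FPKM in mKO libraries (6 of 7 at 1 FPKM or more in each) and to 4.71 to 80.3 in WT libraries (1 to 6 of 7). Primitive endoderm markers summed to 40.8 to 54.6 FPKM in mKO libraries (2 to 4 of 5) and 4.91 to 29.6 in WT (1 to 5 of 5), and trophectoderm markers to 264 to 1025 in mKO (5 to 6 of 6) and 47.8 to 364 in WT (3 to 6 of 6). The part of these markers in the result was not tested. With Rn45s removed and the rest rescaled, none of the 60 was called, beside 2.22% of all genes, and the median of all genes was 0.44. The log2 changes were then 1.76 for Hnrnpf (limma adjusted p = 0.0857) and 2.08 for Snrpa1 (limma adjusted p = 0.124). Over 18 alternatives each of them passed in 7, with limma adjusted p-values of 0.017 to 0.297 for Hnrnpf and 0.015 to 0.316 for Snrpa1. Median ratio scaling also left none, beside 0.327% of all genes, with changes of 1.19 for Hnrnpf and 1.39 for Snrpa1, and moved the median of all genes to 0.06 and that of the members to -0.09. Within the first set of library names Snrpa1 changed by 1.51 and Hnrnpf by 1.47, and within the second both by 2.68. Each set of names alone gave 1 call. Without WT replicate 1 there were 6 calls and without WT replicate 2 there was 1. Without WT replicate 4, or without mKO replicate 1 or 4, there was none, and without mKO replicate 2 there was 1. Without WT replicate 3, in which Snrpa1 is listed at 0, there were 2 calls, neither of them Snrpa1 (log2 change 1.47, limma adjusted p = 0.0777), and without mKO replicate 3 there were 3. In the fits without 1 library 3.45 to 20.3% of all genes were called.

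Other genes of the pathway, from lists of named complexes, also had some calls at E4.25. Of 48 further core snRNP and U1 or U2 partner genes kept, 4 were higher in mKO, Slu7, Cdc5l, Txnl4a and Htatsf1. Gemin6 of the snRNP assembly list (1 of 13) and the epithelial splicing regulators Esrp1 and Esrp2 (2 of 24 other regulators) were also higher. None of the 9 minor spliceosome genes, 18 SR-related proteins and SR kinases or 9 exon junction genes passed, and no list had a lower call. The background was the same 14.6%.

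Libraries labelled Het (oocytes) or mHet (embryos) gave no call in any of 7 comparisons. The counts were 0 of 60 in Het oocytes, 0 of 58 in mHet 1-cell and 0 of 62 in mHet late 2-cell embryos, 0 of 60 and 0 of 63 in the E3.5 sets, and 0 of 60 each in epiblast and ExE. The background was 0.0272% in epiblast and 0% in the others. At an unadjusted p under 0.05 there were 1 higher and 1 lower member in the first E3.5 set (background 6.2% higher and 1.55% lower), 1 lower in ExE (background 3.87% lower) and 0 in the other 5 comparisons. In the first E3.5 set the median log2 change was 0.60 in members and 0.43 over all genes, and 26 of 60 members separated upwards (background 40%). Hnrnph2 had 24.0 and 35.4 FPKM in mHet against 6.26 and 14.9 in WT there (1.49, SE 0.60, limma adjusted p = 0.502). Prpf40b had 1.495 and 0.908 FPKM in mHet against 3.79 and 2.52 in WT (-0.91, SE 0.32, limma adjusted p = 0.502). Without WT replicate 2 of that set 13 members (21.7%) passed, 12 of them higher, beside 18.9% of all genes. The lone WT library was then replicate 1, taken to have the spread of the others, with Rn45s at 21.0% against 3.24 and 2.48% in the mHet libraries and 3.66% in WT replicate 2. In mHet ExE 21 members (35%) passed without mHet replicate 1, 19 of them lower, beside 23.9% of all genes. Replicate 2, with Rn45s at 11.6%, then stood alone. The part of Rn45s in these counts was not tested.

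The E6.5 tissues were the other comparison with calls. All 6 called members were lower in ExE than in epiblast (0 higher and 6 lower of 60, 10%), beside a background of 33.5% of all genes called, 19.4% lower. Of all genes 14.2% were called higher. At an unadjusted p under 0.05, 17 members were lower (background 25.1%) and none higher. Of the 60, 47 had a negative change and 13 a positive one, with a median of -0.31 beside -0.11 over all genes, and negative changes made up 57.7% of all genes.

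Among the called members 3 were hnRNP genes. Hnrnph3, an hnRNP H family gene, had 15.0 and 17.9 FPKM in mKO, 24.1 and 6.31 in mHet and 26.0 and 15.5 in WT libraries of ExE. In epiblast it had 42.1 and 31.3 FPKM in mKO, 42.1 and 33.2 in mHet and 34.5 and 42.1 in WT libraries. Every ExE library lay below every epiblast library, which held for 3 members in all (background 12.7%), and the log2 change was -1.17 (SE 0.29, limma adjusted p = 0.0085). Hnrnph1, which binds G runs, changed by -0.64 (SE 0.19, limma adjusted p = 0.0228) and Hnrnpab, an AU-rich RNA binder, by -0.59 (SE 0.19, limma adjusted p = 0.0349), both with overlapping libraries. Hnrnph2 and Hnrnpf, of the same H and F group, had log2 changes of -0.70 and -0.52 with limma adjusted p = 0.111 and 0.236.

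The snRNP, SR and PRP families had 1 called member each. Snrpb had 214 and 248 FPKM in mKO, 352 and 127 in mHet and 328 and 291 in WT libraries of ExE. In epiblast it had 448 and 454 FPKM in mKO, 537 and 387 in mHet and 478 and 414 in WT libraries. The tissues did not overlap (log2 change -0.87, SE 0.25, limma adjusted p = 0.0165). Srsf10 changed by -0.60 (SE 0.21, limma adjusted p = 0.0476) and Prpf40b, a U1-associated protein gene with low levels of 0.817 to 2.22 FPKM in ExE and 1.82 to 4.83 in epiblast, by -0.73 (SE 0.20, limma adjusted p = 0.0139). No SF3 gene was called, and their log2 changes ran between -0.79 for Sf3a3 and 0.92 for Sf3a2.

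**Figure D5:**
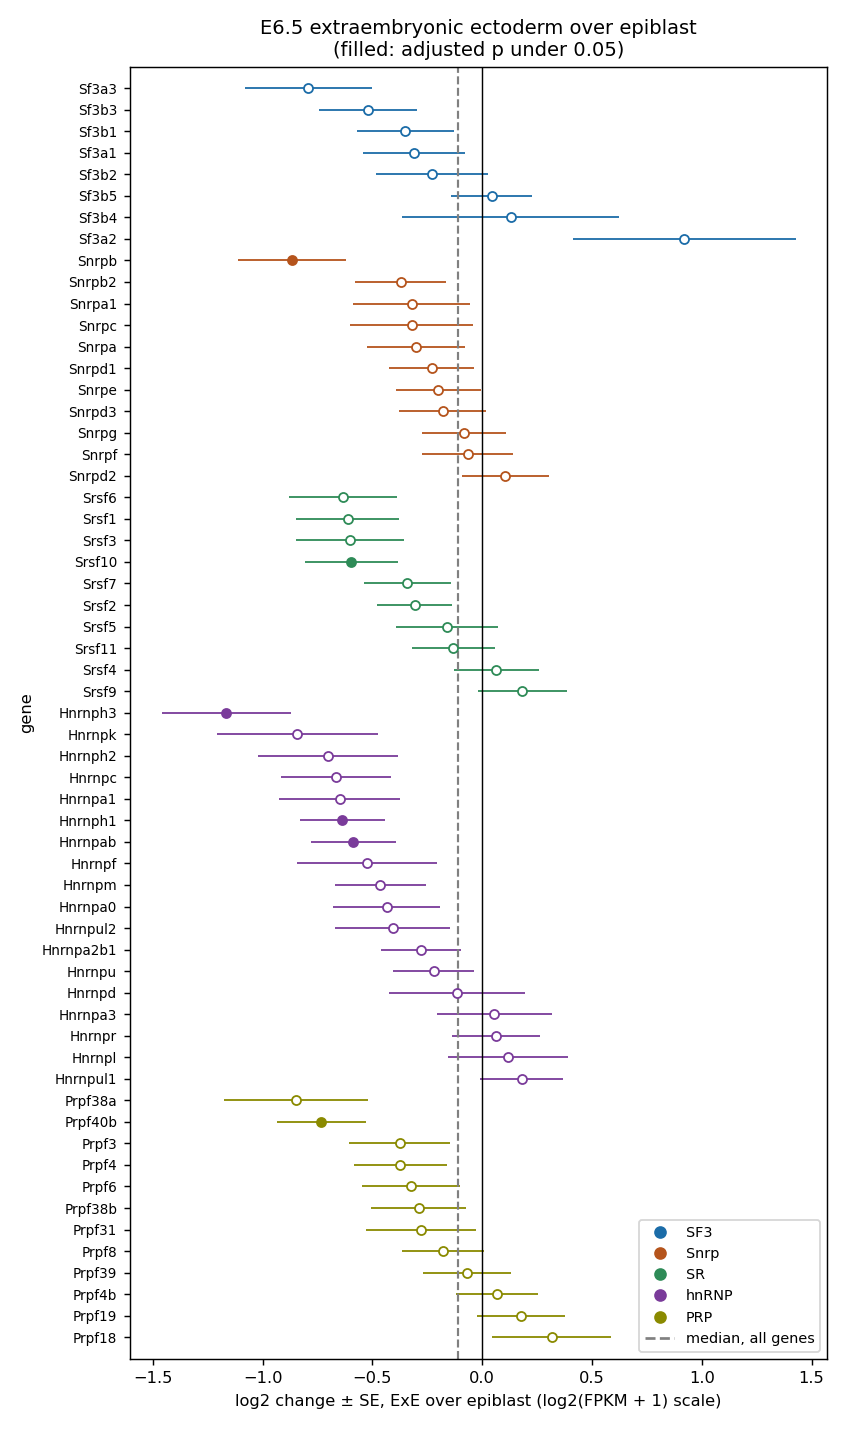
Log2 change of 59 members in E6.5 ExE over epiblast with its standard error (x axis, log2(FPKM + 1) scale), 6 libraries of each tissue, genes by family down the page; filled points passed an adjusted p of 0.05, and the dashed line is the median of all genes, -0.11. Of the 59 points 46 lie left of 0, and all 6 filled points do.

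The count of 6 depended on single libraries. ExE mHet replicate 2, with Rn45s at 11.6%, had Hnrnpk at 98.9 FPKM, Hnrnpa1 at 174 and Snrpb at 127, while replicate 1 had 530, 603 and 352. Without ExE mHet replicate 2 there were 12 calls (20%, 11 lower), beside 37.8% of all genes, and without replicate 1 there were 29 (48.3%, 28 lower), beside 49.3%. With all mHet libraries left out there were 17 (28.3%), all lower in ExE, beside 35.9%. Without any 1 of Epi WT (a), ExE WT replicate 2 or Epi mHet (a) there were 2, and without Epi WT (b), Epi mKO (a) or either ExE mKO library there were 3, beside 26.9 to 32.1% of all genes in these fits. The WT libraries alone, 2 against 2 within the fit, called none, beside 12.2% of all genes, with a median change of -0.26. Median ratio scaling gave 15 (25%), all lower, beside 38.9%. Over 18 alternatives Hnrnph3 passed in 17, Snrpb and Prpf40b in 15 each, Hnrnph1 in 10, Hnrnpab in 8 and Srsf10 in 7, each lower in ExE in all of them.

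Other pathway genes had calls in both directions, to be read beside the 14.2% of all genes called higher in ExE and the 19.4% called lower. Of the 27 other hnRNP family and splicing regulators kept, 4 were higher in ExE (Rbm38, Ptbp3, Esrp2 and Mbnl2) and 4 lower (Celf2, Ptbp2, Esrp1 and Khdrbs3). Of 48 core partners 2 were lower, Aqr and Ctnnbl1. The minor spliceosome list (9 kept) had Snrnp35 higher and Zmat5 lower, and the assembly list (14 kept) had Gemin6 higher and Gemin4 lower. Upf3b was the 1 lower of 9 exon junction genes and no SR-related gene of 18 passed. Esrp1 and Esrp2, paralogues that set epithelial splice patterns, thus passed in opposite directions.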

How the data were processed

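Polyadenylated RNA of 68 libraries was read after Smart-seq2. The submitters' processing notes list HTSeq 0.6.0, HISAT2 2.2.1 and Trim Galore 0.4.2, with mm9 and hg19 as builds. The authors deposited FPKM per gene and library in 8 tables, per the file headers. What computed FPKM, with which annotation and strand setting, is not stated in the labels.

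Each table was analysed alone, with 67 libraries used in all. Epiblast columns carry a group but no matching replicate number, so their libraries are called a and b. A gene entered a table's test with 1 FPKM in 2 libraries. The model was limma 3.58.1 (trended eBayes after lmFit, in R 4.3.3) on log2(FPKM + 1), which understates the change of low genes. It held every genotype of the table, and two-sided p-values were adjusted by Benjamini-Hochberg across all genes entered, with a threshold of 0.05, in 18 comparisons. It was tested on simulated data. Low values showed no step worth 1 read (the commonest ratio covered 1.73% of genes), so no counting interval is given.

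Members, lists and tests were chosen with earlier results of these data known. Genes named are a selection of members past the threshold (up to 10 a direction, or else the 2 with the smallest p), the highest and lowest of each family, those with the largest stage ratios at 10 FPKM or more, and fixed anchors such as Sf3b1 and Prpf8. One member, counted in every total, is not reported here by name or shown in the plots with gene labels. Alternatives were a pseudocount of 0.1, no filter, median ratio scaling, the compared groups alone, Rn45s removed, a replicate block, the set of library names as a term, and each library left out. Chosen after seeing the data were each set of library names alone, both WT libraries of the second set left out, and the mHet libraries left out between tissues.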

Additional observations from a re-analysis of the deposited data

Results flagged for a closer look

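In groups of 4 to 10 libraries, single libraries stood apart by Dixon's criterion at 3 of 25 tested sets of values, where chance flags about 1 in 20. All were in the second E3.5 set. Srsf4 was 6.85 FPKM in mKO replicate 7 and 3.22 to 4.15 in the other mKO libraries. Snrpb was 71.2 FPKM in WT replicate 7 and 12.6 to 23.5 in the other WT libraries. Replicate 7 also had the highest Snrpb of the mHet libraries (90.9 FPKM) and of the mKO libraries (109 FPKM), so that high level was not particular to the WT library. Hnrnpl was 12.0 FPKM in mHet replicate 4 and 17.5 to 19.2 in the other mHet libraries.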

How the results depend on the processing

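Of 1097 values under alternatives, no called value changed sign. For counts and shares 212 stayed within the limits set and 33 moved. For single members 749 stayed, 45 moved and 58 no longer passed. At E4.25 the 2 calls became 0 with a pseudocount of 0.1, no filter, median ratio scaling or Rn45s removed, 4 with the set of library names as a term, 1 in the first set alone, 1 in the second set alone and 1 without both WT libraries of the second set, and 0 to 6 with each library left out. The log2 changes of Snrpa1 and Hnrnpf, 2.10 and 2.08 as reported, were the same with no filter, 3.04 and 2.35 with a pseudocount of 0.1, 2.08 and 1.76 with Rn45s removed and 1.39 and 1.19 with median ratio scaling. Between ExE and epiblast the 6 calls became 15 with median ratio scaling, 0 with WT libraries alone, 17 with the mHet libraries left out, and 2 to 29 with each library left out. With each library left out, calls in mHet against WT ran 0 to 13 in the first E3.5 set and 0 to 21 in ExE. The cause was not tested. The WT share with Rn45s left out of the total was 1.415% in the first E3.5 set, 1.815% in the second and 1.402% at E4.25, by construction of the total. Replicate numbers did not meet the criterion for pairing (correlations of deviations from -0.41 to 0.71). With a replicate block there were 5 calls at E4.25 and 1 in mKO 8-cell embryos, and the count of calls in the other comparisons so fitted stayed at 0. No paired analysis was possible because the columns carry no matching numbers for the epiblast, tissue and interaction comparisons. Depth is unknown and groups are small, so the absence of a call does not show equal levels.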
